A study of Mus musculus with 2 samples.

Results

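Peaks of open chromatin that were listed in a treated library and had no counterpart in its control were gathered where they lay close together. The chromatin of mouse CD8+ T cells had been profiled by ATAC-seq, in which a transposase cuts accessible DNA, and 1 peak list per library was analysed. The library titled control and the library titled treatment are 1 sample each, with the cell type given as T cells and the series title naming "Peml-1" CD8+ T cells. A further label field reads "Treatment" for the first and "Combined treatment" for the second, and no agent, dose, time or animal is named, so "control" and "treatment" follow the titles only.

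The members were chosen by their readout. A treatment peak on chromosomes 1 to 19 was called treatment-only if it shared not even 1 bp with a control peak, and it was placed by its summit in fixed bins of 100 kb. Bins with at least 5 treatment-only peaks were kept, and all peaks of both lists in them are described. This gave 33 bins, 0.259% of the 12744 bins with a treatment peak, on 12 chromosomes. They held 724 of 146646 peaks, 465 of 63351 in treatment and 259 of 83295 in control. Treatment-only peaks made up 261 of the 465, where 6.73% of all treatment peaks were treatment-only. That excess was set by the selection and is not a result. The values of the peaks, their neighbours and their sequence context are given as description, since with 1 library per group no test of treatment against control was possible.

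Genes that were duplicated recently often stand side by side as arrays of near-identical copies, and sequencing reads from such copies can match several places in the genome equally well. Single-copy genes lack that ambiguity. In T cells the second kind includes Il7r, whose product is the subunit through which T cells sense IL-7, and Ripor2, an inhibitor of RhoA that acts in T cell polarity and migration. Both kinds of locus occurred among the 33 bins.

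The sequences below are the 250 bases before the RefSeq start of genes in 5 of the bins (GRCm38, the assembly of mm10), 5′ to 3′ on the gene's strand. The first is shown because 3 genes on chromosome 8 carry it without a single difference: 4930467E23Rik (chr8:19729326-19729575, plus strand), Gm15319 (chr8:20363203-20363452, minus strand) and Gm21119 (chr8:20614677-20614926, plus strand). The other two stand for single-copy T cell genes, Il7r (chr15:9529877-9530126, minus strand) and the first Ripor2 start inside its bin (chr13:24614356-24614605, plus strand). Capitals mark matches to AGGAAG (an Ets motif) or TGTGGT (a Runx motif) on either strand.
4930467E23Rik, Gm15319 and Gm21119: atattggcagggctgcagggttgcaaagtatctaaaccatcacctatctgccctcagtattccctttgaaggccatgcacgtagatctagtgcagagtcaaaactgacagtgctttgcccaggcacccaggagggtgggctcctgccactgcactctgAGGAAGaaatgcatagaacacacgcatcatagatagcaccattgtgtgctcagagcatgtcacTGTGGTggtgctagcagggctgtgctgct
Il7r: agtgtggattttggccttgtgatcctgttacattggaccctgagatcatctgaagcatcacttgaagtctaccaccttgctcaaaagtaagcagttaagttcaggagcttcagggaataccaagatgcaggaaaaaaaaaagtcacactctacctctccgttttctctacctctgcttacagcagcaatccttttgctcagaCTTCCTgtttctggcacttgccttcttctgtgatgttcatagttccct
Ripor2: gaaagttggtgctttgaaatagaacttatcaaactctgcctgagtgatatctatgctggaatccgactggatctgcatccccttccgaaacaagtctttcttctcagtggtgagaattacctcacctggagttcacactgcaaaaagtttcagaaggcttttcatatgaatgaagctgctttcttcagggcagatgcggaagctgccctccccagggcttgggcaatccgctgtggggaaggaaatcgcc

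Of all 31396 promoters on these chromosomes, 29.6% held AGGAAG and 14% held TGTGGT in the same 250 bases. The chromosome 8 sequence held each once, starting 92 and 29 bases before the gene. The Il7r sequence held AGGAAG once, starting 48 bases before the gene, and the Ripor2 sequence held neither. TGANTCA (AP-1, in 6.77% of promoters) and CTTTGAT (Tcf7 and Lef1, in 3.23%) were in none of them.

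Each of the 3 copies on chromosome 8 had 1 treatment-only peak over this sequence and no control peak. Its summit lay at -114 bp from the start of 4930467E23Rik, with a coverage of 61 reads and a fold enrichment of 2.89. At Gm15319 the summit lay at -165 bp, with a coverage of 59 and a fold of 2.73. At Gm21119 it lay at -136 bp, with 62 reads and 2.69. The 3 peaks thus had almost the same height over identical bases, and how reads matching several copies were placed is not given in the sources used here. Fold enrichment is the authors' ratio of coverage to local background, and coverage is the whole number of reads at the summit recovered from that ratio and the p-value.

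Chromosome 8 held 10 of the 33 bins and 103 of the 261 treatment-only members. The copies lie in a stretch of 10 consecutive bins, chr8:19700001-20700000, of which 6 were kept. The stretch held 132 treatment and 65 control peaks. Of these, 82 were treatment-only and 8 control-only. The kept bins of Gm15319 (chr8:20300001-20400000) and 4930467E23Rik (chr8:19700001-19800000) had 15 and 13 treatment-only peaks, ranks 1 and 3. Gm15319 had 21 treatment and 10 control peaks in all, and 4930467E23Rik 17 and 5. The bin of Gm21119 had 10 treatment-only peaks among 19, against 11 control peaks, all of them shared. The bin of Gm40469 (chr8:20500001-20600000) had 10 among 21, against 15 control peaks. The remaining pair lay beside 9530057J20Rik, with 11 treatment-only peaks among 14 (5 control peaks), and at it, with 9 among 10 (1 control peak). Of the 4 bins of the stretch that were not kept, 3 held 4 treatment-only peaks each and so missed the threshold by 1.

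Within 60 kb of the 3 starts there were 46 treatment-only summits, and 14 of them (30.4%) had a counterpart in another copy within 200 bp of the same distance. Windows of that width around the summits of the other copies covered 9.25% of the span. Besides the promoter, the other position seen in all 3 copies lay upstream, at -9152 bp in 4930467E23Rik (coverage 50), -9257 bp in Gm15319 (41) and -9197 bp in Gm21119 (56). Shared peaks lined up too: 9 of 23 in treatment (39.1%, 4.35% covered) and 13 of 27 in control (48.1%, 5.09% covered). One of these, farther upstream, had summits in control at -26260, -26369 and -26405 bp with coverages of 243, 203 and 188. Its treatment counterparts reached 280, 221 and 184, so this position was high in both libraries in every copy, while the promoter was listed in treatment alone.

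**Figure D1:**
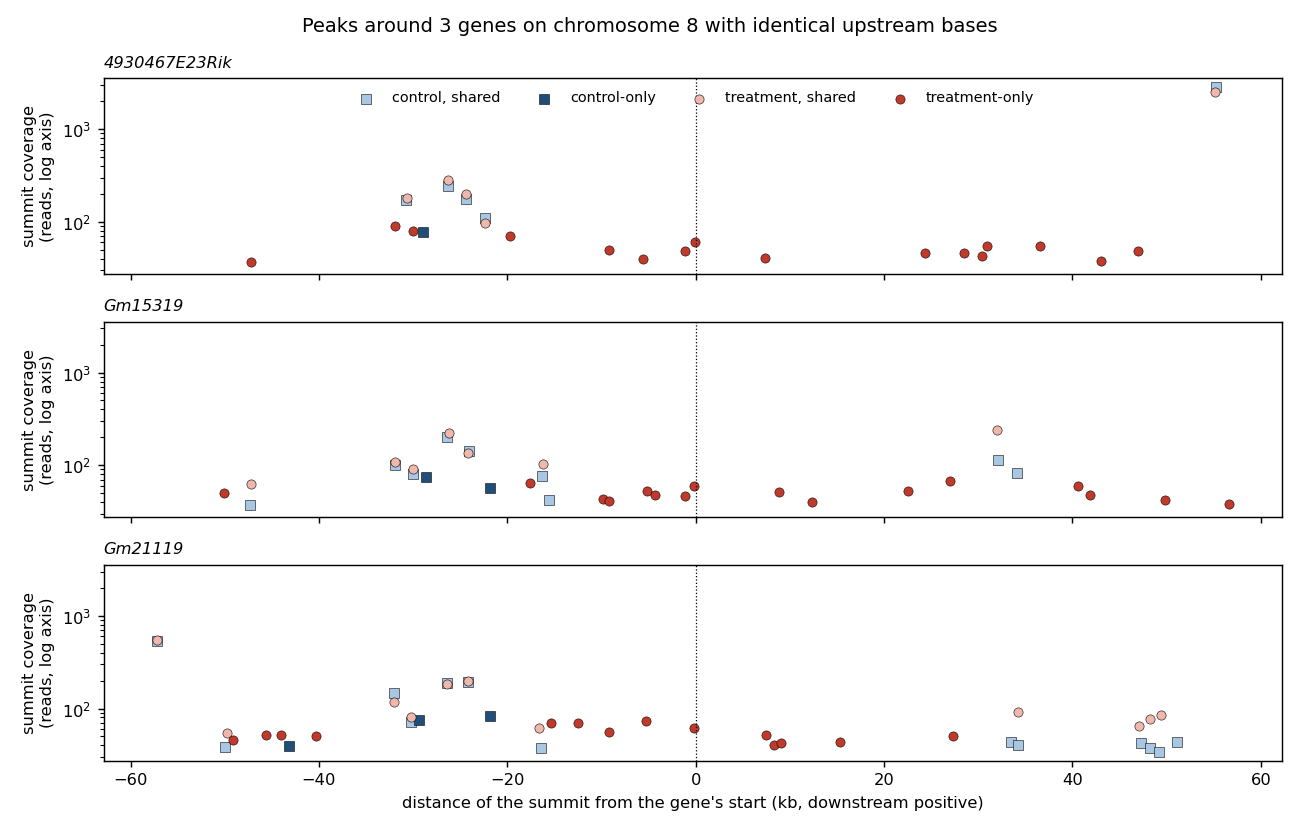
Summit coverage in reads (log axis) against distance from the gene's start in kb, for 4930467E23Rik, Gm15319 and Gm21119; each point is 1 peak of the control (squares) or treatment (circles) library, dark where single-library and pale where shared. All 3 panels have a dark circle at the start, at 59 to 62 reads, and no square there, while the group of peaks farther upstream is present in both libraries.

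The Sprr2a bin, chr3:92200001-92300000, stood at rank 4 with 12 treatment peaks and no control peak. Sprr2a genes encode small proline-rich proteins of the cornified envelope of skin. The nearest control peak to any of these 12 was at least 134412 bp away. Their coverages ran from 36 to 49 reads and their folds from 2.17 to 3.12, so all were low. Sprr2a1 and Sprr2a2 had the same 250 upstream bases, and the 222 bases that Sprr2a3's window shares in register with theirs were identical as well. No peak of either library touched these promoters, and all 12 peaks lay between those of Sprr2a1 and Sprr2a3.

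No control peak was listed either in the adjoining bins of Gm8126 and 1700001F09Rik on chromosome 14. Each had 6 treatment-only peaks, with coverages of 32 to 40 in the first and 37 to 52 in the second. The nearest control peak lay at least 436034 bp from each of them. These bins and the Sprr2a bin were the only kept bins of which all treatment peaks were treatment-only.

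Zinc finger genes, many of which encode DNA-binding repressors and stand in clusters, marked 4 further bins. The bin of Gm5373 (chr8:71800001-71900000) had 14 treatment-only peaks among 16 and 2 control peaks, with 4 Zfp genes within 100 kb. The bin of Zfp982 (chr4:147400001-147500000) had 11 among 15 and 8 control peaks. Zfp992 had 7 among 11, and the bin of Zfp978 and Zfp991 had 5 among 10, with 5 and 6 control peaks. Coverage of the treatment-only peaks in these 4 bins stayed between 34 and 78 reads.

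Other clustered loci followed. The bin of Mroh2a and Ugt1a (chr1:88200001-88300000), called the Ugt1a bin below, had 11 treatment-only peaks among 22. It had 17 control peaks, 6 of them control-only. The Ugt1a locus encodes several UDP-glucuronosyltransferases through alternative first exons. More of the treatment-only summits lay in Mroh2a than in Ugt1a, and others in Hjurp or in no protein-coding gene. No promoter in this bin shared a 30-base word with another promoter. The treatment-only peaks had a median fold of 2.03, the lowest of the 33 bins, at a local background 2.40 times the library's lowest. Tcp10c (chr17:13300001-13400000) had 10 among 12, with 2 control peaks. The bin of Gm51573 held 5 genes whose promoters share at least 53.5% of their 30-base words with neighbours. Only Gm51594 among them had a peak at its promoter, and it was treatment-only. The bin nearest to Snrpn (chr7:59700001-59800000), an imprinted locus, held 40 snoRNA genes and no protein-coding gene. It had 9 treatment-only peaks among 13, and its neighbour, with 20 snoRNA genes, had 5 among 6.

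**Figure D2:**
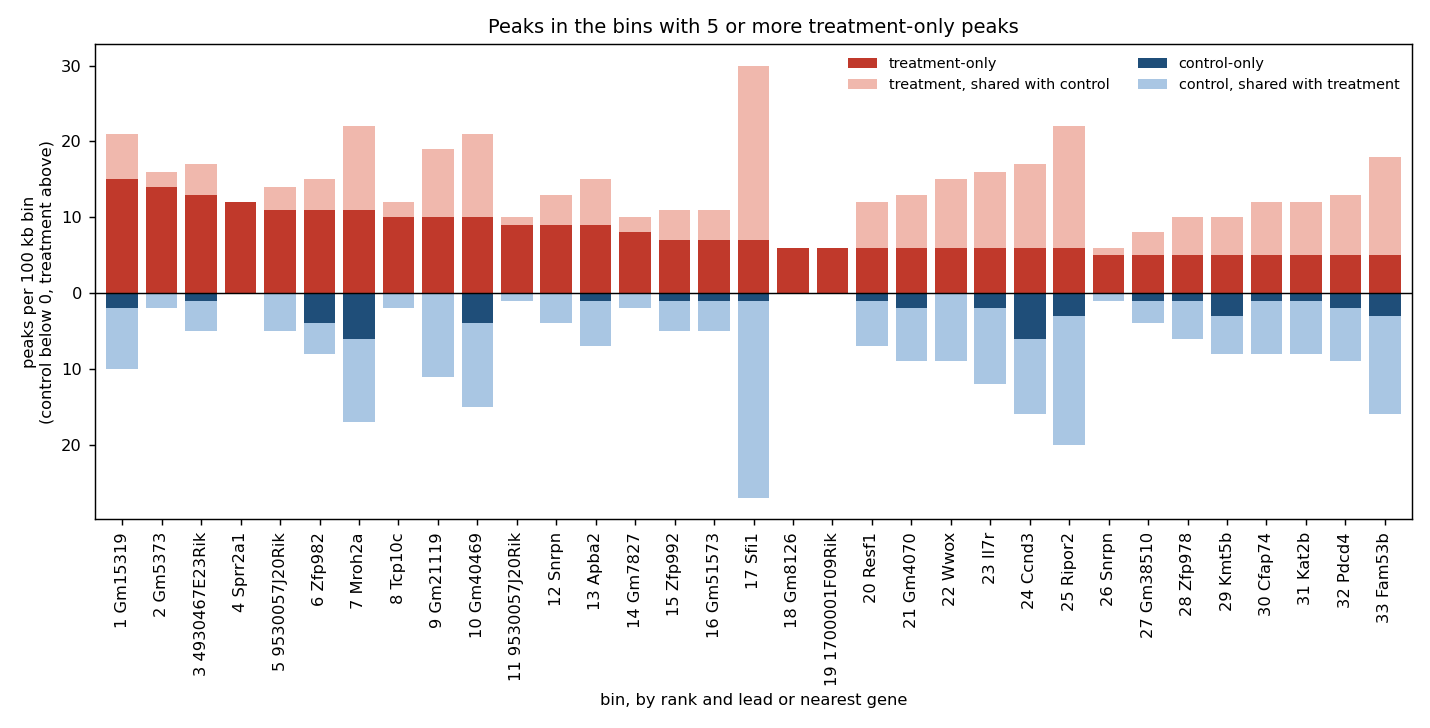
Peaks per 100 kb bin for the 33 bins in order of rank, treatment above 0 and control below, with single-library peaks dark and shared peaks pale. The bins of ranks 4, 18 and 19 have no bar below 0, and the Sfi1 bin has the most peaks, 30 in treatment and 27 in control.

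Array membership was read in 2 ways. By gene symbols (at least 3 protein-coding genes of one symbol stem, or 3 unnamed ones, within 100 kb), 10 of the 33 bins were arrays. Of 1024 such bins with a peak of either library, 0.977% were kept, against 0.166% of the 12661 bins that were neither arrays nor at T cell genes. That rule missed the chromosome 8 stretch and Tcp10c, and took in the Kmt5b bin through 3 Aldh genes. A second reading, added after the data were seen, asked for a promoter within 100 kb of the bin that shares at least 50% of its 30-base words with another gene's promoter within 1 Mb. It held for 12 kept bins, 2.75% of the 436 bins of that kind. Either reading held for 16 kept bins, with 147 treatment-only peaks among 217 (67.7%), and neither for 17, with 114 among 248 (46.0%). These shares come from the counts that selected the bins and are description only. The 17 include both bins of 9530057J20Rik in the chromosome 8 stretch and both bins nearest to Snrpn.

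Promoter windows were also counted by their shared words, which restates the second reading and is not separate from it. Of 62 promoter windows in the kept bins, 16 (25.8%) shared at least 50% of their words with another gene, against 3.42% of all 31396. For 15 of these 16 the share held with genes within 1 Mb, as in the second reading. Among the 8 windows touched by a treatment-only peak, 4 were of this kind: those of 4930467E23Rik, Gm15319, Gm21119 and Gm51594. Among the 25 touched by shared peaks 1 was, C130026I21Rik. Among the 29 touched by no peak 11 (37.9%) were of this kind, which is most of the 16. Elsewhere on these chromosomes, 0 of 32 windows touched by a treatment-only peak were.

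Clusters of control-only peaks were more frequent. Of the 83295 control peaks, 29.3% were control-only. The same threshold applied to them gave 1034 bins, 7.55% of the bins with a control peak, with up to 18 control-only peaks in a bin. Of the 33 kept bins, 2 were among these, those of Ugt1a and Ccnd3, with 6 control-only peaks each. That share is close to the 7.55% over all bins with a control peak. Bins with repeated promoters made up 3.12% of all bins with a peak, 36.4% of the kept bins and 1.55% of the control-only ones. In the kept bins 47 of 259 control peaks (18.1%) were control-only, and 12 bins had none. The longer control list bears on these counts: cut to the length of the treatment list by its p-values, it left 197 bins with at least 5 treatment-only peaks, the 33 among them.

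Of the 33 bins, 2 (6.06%) lay at listed T cell genes, as did 2.09% of all bins with a peak. T cell bins were those within 10 kb of 1 of 176 listed T cell genes, and 2 of 292 (0.685%) were kept. Their treatment-only peaks had the same median fold, 2.42, as those of the 10 arrays by symbols, but a median coverage of 68.5 against 47.0 reads. The median fold was 2.56 in the Il7r bin and 2.25 in the Ripor2 bin. Median coverage was 76.5 reads in the Il7r bin and 41.0 in the Ripor2 bin, so only Il7r was above the arrays. The Il7r bin (chr15:9500001-9600000) had 16 treatment peaks, 6 of them treatment-only, and 12 control peaks, 2 of them control-only. The Ripor2 bin (chr13:24600001-24700000) had 22 treatment peaks, 6 treatment-only, and 20 control peaks, 3 control-only. Neither gene had, inside its bin, a promoter that shared a 30-base word with another promoter.

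At Il7r, 5 of the 6 treatment-only peaks lay together at the far end of the gene. Their summits were 21674 to 27420 bp downstream of the start, and 4 of them lay past the gene's end. Their coverages were 67, 73, 80, 94 and 70 reads in order of distance, and the nearest control peak was at least 19690 bp away. The sixth lay 2540 bp downstream of the start, in the gene, with a coverage of 451 reads, a fold of 3.63 and a gap of 362 bp to the nearest control peak. That coverage was the highest of all 261 treatment-only members. The bin was lost when treatment-only intervals within 500 bp of each other were counted once, and with a −log10 q-value of at least 10 in both lists.

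Shared peaks of the Il7r bin also had more reads in treatment. The promoter peak reached 836 reads in treatment and 503 in control. The peak at -3610 bp, upstream of the start, reached 1103 against 154, a ratio of 7.16 and the largest in the bin. Further upstream, toward Spef2, the peak at -45146 bp reached 1486 against 915, and that at -34501 bp 547 against 161. The last pair stood close, at 129 against 113 and 157 against 170. Treatment was higher at 9 of the 10 shared peaks, with a median ratio of 1.64, and local background was higher at all 10, with a median ratio of 2.14. At the peaks at -25513 and -59265 bp, however, both backgrounds were their library's lowest, 15.0 against 14.2 reads. Those peaks show no raised background.

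At Ripor2 the treatment-only peaks were scattered over the second part of the bin and low. Their coverages were 38, 89, 53, 40, 38 and 42 reads in order of distance from the gene's first start. The strongest had a fold of 4.87, and every one lay at least 5165 bp from a control peak. The 2 promoters inside the bin carried shared peaks, of 616 against 709 reads and 521 against 519. Treatment was higher at 10 of 16 shared peaks, with a median ratio of 1.18. With a −log10 q-value of at least 5 in both lists, 2 treatment-only peaks were left and the bin was lost, as it was at 10. The next bin upstream, with 4 treatment-only peaks, missed the threshold by 1, and the whole gene with 10 kb on each side had 11 treatment-only and 6 control-only peaks.

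**Figure D3:**
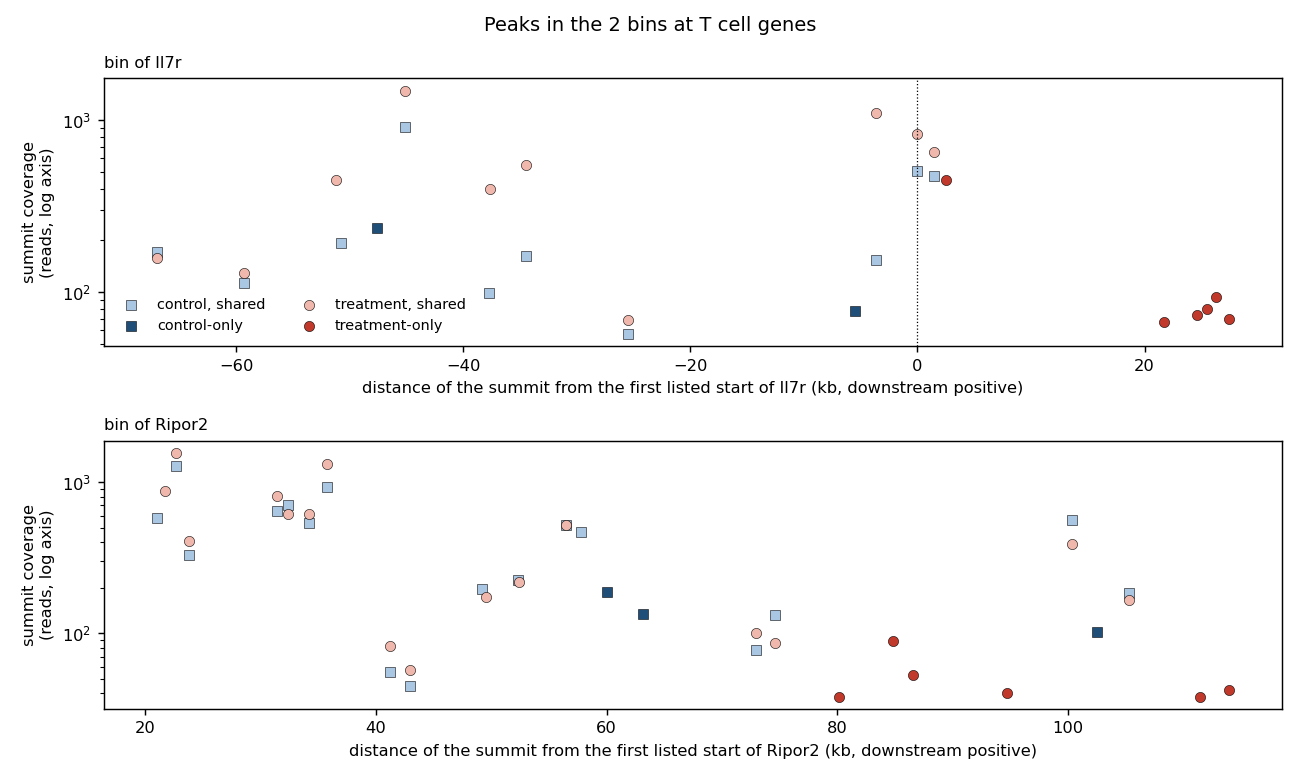
Summit coverage in reads (log axis) against distance from the first listed start in kb, for the bins of Il7r and Ripor2, with symbols for library and status given in the legend. At Il7r 5 dark circles stand together past 21 kb and 1 at 451 reads beside the promoter, and at Ripor2 the 6 dark circles lie between 38 and 89 reads.

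Of 174 listed T cell genes on chromosomes 1 to 19, 99 had no treatment-only peak in the gene or within 10 kb of it and 75 had at least 1. At least 5 treatment-only peaks were found at 7 genes, and at least 5 control-only peaks at 29. Foxp1, a transcription factor of T cell quiescence, had 11 treatment-only among 70 treatment peaks and 11 control-only among 70 control peaks. Inpp4b, a phosphoinositide phosphatase, had 11 of 73 and 27 of 89. Dock2, which activates Rac in migrating lymphocytes, had 8 of 25 and 11 of 29. The transcription factor Ets1 had 6 of 27 and 5 of 27. Bcl2, which blocks apoptosis, had 5 of 37 and 9 of 42. Il7r, with 6 of 9 treatment-only, was the only one of the 7 with a single control-only peak, 1 of 4. Over all peaks the shares were 6.73% and 29.3%, and these loci differ in length and in number of peaks. In bins at T cell genes the shares of peaks were 8.28% and 22.8%. The same counts are not given for all other genes, so neither scarcity nor excess can be read from them.

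The treatment-only peaks with the highest folds lay in bins that neither reading took for an array. The bin inside Wwox, an oxidoreductase and tumour suppressor, had the highest fold of any treatment-only member, 8.60, at a coverage of 137. Another of its treatment-only peaks had a coverage of 307 and a fold of 6.09. Gm4070 reached 6.91, Resf1, a factor in retroelement silencing, 6.42, and Fam53b 5.42. In the bins with an array or a repeated promoter no treatment-only peak exceeded 3.97. The bin of Ccnd3, which encodes cyclin D3, had 6 treatment-only and 6 control-only peaks. Sfi1, a centrosome gene, stood apart through its 30 treatment and 27 control peaks, of which 7 and 1 were single-library. Its treatment-only peaks had coverages of 174 to 346, at a local background 6.06 times the lowest.

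Of the bins not yet described, the one nearest to Apba2, a neuronal adaptor gene, had 9 treatment-only peaks among 15, and Gm7827 had 8 among 10. The bin of Pdcd4, an inhibitor of translation, had 5 among 13, and that of the acetyltransferase gene Kat2b 5 among 12. Kmt5b, a histone H4 methyltransferase gene, shared its bin with Chka and Tcirg1, with 5 among 10. The bin of Cfap74 and Gnb1 had 5 among 12, and Gm38510 5 among 8. Each of these bins had control peaks, between 2 and 9 of them, and in each fewer were control-only than treatment-only.

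At the median, treatment-only members were weaker and farther from control peaks than treatment-only peaks elsewhere. The 261 members had a median fold of 2.57 and a median coverage of 49.0 reads, and the 4002 others 2.80 and 51.0. The median over all treatment peaks was 7.35 and 190, so both kinds were low peaks. Members lay a median of 8235 bp from the nearest control peak, others 4054 bp. In 13.0% of members and 19.6% of others that gap was under 1 kb. The local background of members was 1.18 times the library's lowest at the median, against 1.0 for the others. Their summits fell in the span of a protein-coding gene in 44.1% of cases, against 58.9%. In the 16 bins with an array or repeated promoter, median fold, coverage and gap were 2.43, 48.0 reads and 10600 bp. In the remaining 17 bins they were 2.68, 52.5 reads and 5710 bp, so coverage there was not lower than elsewhere.

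At most shared peaks of the kept bins reads were higher in treatment too, and so was the background around them. Their median coverage was nonetheless 166 reads in treatment and 184 in control. These peaks were not used as treatment-only peaks in the selection, but they share bins with them. Over 204 shared treatment peaks the ratio of summit coverage, treatment over control, had a median of 1.13, and 123 were above 1. The median over all 59088 shared peaks was 0.70. The ratio of local background had a median of 1.29 in the kept bins, above 1 at 172 (84.3%), against 0.892 and 34.7% over all shared peaks. No ratio was corrected for depth. The lowest background was 14.2 reads in control and 15.0 in treatment, and per base of the narrowest peak these differed by a ratio of 1.006. A shared peak at both of these lowest values has a background ratio of 1.06. Such peaks are counted as above 1, in the kept bins and over all shared peaks. The lower quartile of the ratio in the kept bins was 1.06.

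Of the 30 kept bins with a shared peak, 25 had a median background ratio above 1, and 19 of these a median coverage ratio above 1 as well. The 25 include Gm4070 and Kat2b at 1.06, the ratio of the lowest backgrounds of the libraries. Gm21119 had 2.02 for coverage and 2.12 for background, and all 9 of its shared peaks were higher in treatment. The bin nearest to Apba2 on chromosome 7 had 2.04 and 2.0, and Gm51573 1.94 and 1.99. Sfi1 had 1.57 and 1.5. On the other side, both ratios were below 1 in 5 bins, among them Ccnd3 (0.761 and 0.729), Kmt5b (0.671 and 0.896) and Fam53b (0.746 and 0.996). The highest background ratios were those of Il7r, a single-copy gene, at 2.14, and of Gm21119, with repeated sequence. The other bins with the same promoter bases as Gm21119 had lower background ratios, 1.34 at Gm15319 and 1.29 at 4930467E23Rik. The part of raised background in the treatment-only calls was not tested, and neither was the number of copies of these loci in either sample.

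**Figure D4:**
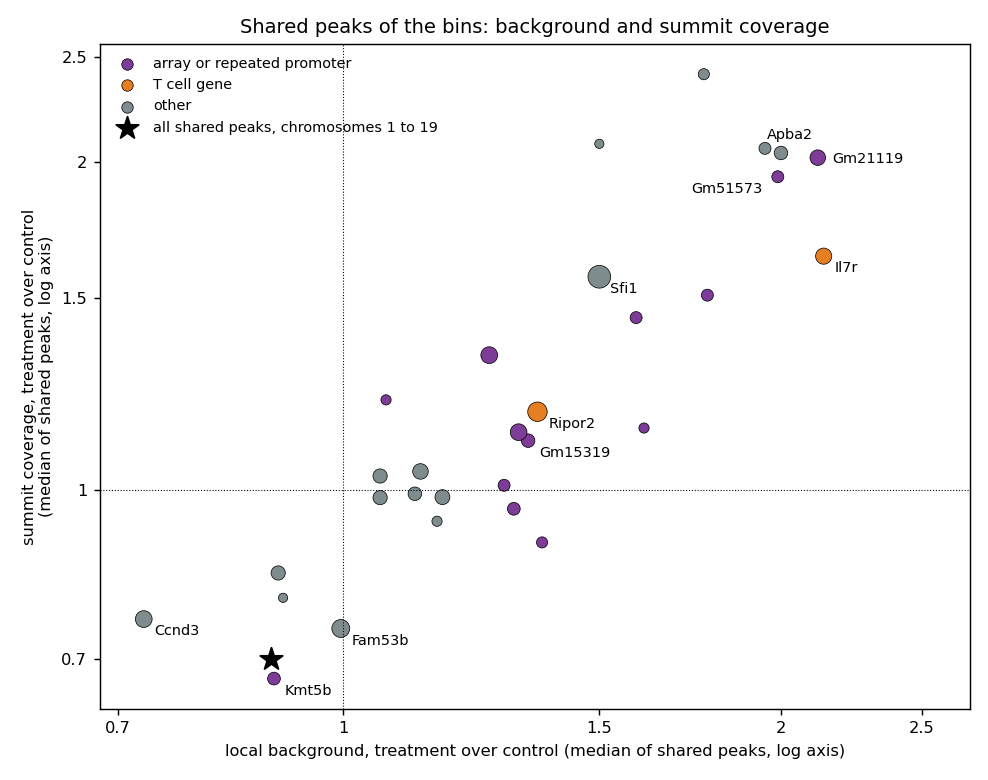
Median ratio of treatment to control at the shared peaks of each kept bin, local background on the x axis and summit coverage on the y axis (log axes), with point size growing with the number of shared peaks. Most bins lie above and to the right of the star for all shared peaks, at 0.892 and 0.70, and Il7r and Gm21119 are farthest to the right.

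Bins just inside and outside the threshold had similar numbers of peaks and similar folds, but differed in median coverage and in their share of T cell genes. The 8 bins with 5 treatment-only peaks had a median of 11 treatment and 8 control peaks, and the 43 bins with 4 had 12 and 9. Median folds of the treatment-only peaks were 2.62 and 2.56, and median coverages 44.5 and 53.0. Among the 43 bins, 9 were at listed T cell genes, among them Dock2, Lef1, Foxp1, Ets1 and the neighbouring bin of Ripor2, and 7 were arrays by symbols. That was 20.9% and 16.3% of them, against 2.09% and 7.33% of all bins with a peak. The only kept bins at T cell genes, Il7r and Ripor2, had 6 treatment-only peaks each and so were not among the 8. Over all bins, 8.28% of treatment peaks at T cell genes were treatment-only, 7.33% in arrays by symbols and 13.9% near repeated promoters. The control-only shares there were 22.8%, 26.3% and 25.9%.

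As a check of the cells, all 8 CD8 T cell marker genes, Cd8a and Cd3e among them, had a peak within 1 kb in each library. Of 4 B cell markers 1 had one in each (Cd79a), and of 2 natural killer cell markers none did. Of 4 myeloid markers all 4 had one in control and 2 in treatment, and of 4 melanocyte markers 2 in control (Mlana and Sox10) and 1 in treatment (Mlana). The part of other cells in the peaks above was not tested.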

How the data were processed

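ATAC-seq of CD8+ T cells from mouse was deposited as 1 MACS2 narrowPeak list for each of 2 libraries. Per the submitters' processing notes, the tools were cutadapt 2.5, Bowtie2 2.3, Picard 2.20 and MACS2, and the build was mm10; how reads with several matches, duplicates or the transposase shift were handled is not given in the sources used here. Each deposited peak carries the authors' score, fold enrichment as a ratio, and −log10 p-value and −log10 q-value. The summit coverage was solved from fold and p-value as a whole number, to within 0.001 in −log10 p, for all 724 members. This assumes the caller's Poisson formula; it was tested on simulated data. Read totals were not used here. Genes and promoters came from RefSeq tables of the same assembly. The bins named are the 12 with the most treatment-only peaks and those at T cell genes, with others as examples chosen after their values were seen. Members and lists were chosen with earlier results of these data known. With 1 library per group, every comparison is between these libraries and not the conditions. Computations used Python 3.11.15, numpy 2.4.6, pandas 2.3.3 and scipy 1.17.1.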

Additional observations from a re-analysis of the deposited data

Results flagged for a closer look

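Clusters of treatment-only peaks also appeared outside chromosomes 1 to 19, in peaks that the report does not use. On chromosome X, 16 treatment-only peaks fell in 3 bins of at least 5, at Btbd35f29, Spin2f and Zmat1, where 1 control bin held 6 control-only peaks. On contigs that are not placed on a chromosome, 37 treatment-only peaks fell in 5 such bins, and no control bin reached the threshold. The lists held 183 treatment and 141 control peaks on these contigs.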

How the results depend on the processing

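The number of kept bins rested on how a counterpart was defined. It rose from 33 to 102 with a reciprocal overlap of at least 50%, to 106 with summits within 150 bp, and to 197 when the control list was shortened to the length of the treatment list. It was 64 with bins of 200 kb, 76 with 4 or more peaks and 7 with a −log10 q-value of at least 10. The treatment-only peaks in them were, in the same order, 673, 691, 1324, 484, 433 and 42, against 261. Arrays by symbols among the kept bins numbered 10. They were 16 with summits within 150 bp, 26 with lists of equal length, 18 with bins of 200 kb, 17 with 4 or more peaks and 1 with a −log10 q-value of at least 10. They were 4 with genes touching the bin only, 27 with all gene types and 16 with repeated promoters added, an alternative chosen after seeing the data, as was adding chromosome X. The cause of each shift was not tested. The other settings kept these 3 counts within 1.5 times their main values, and the ratio of treatment to control peaks in the kept bins, 1.80, ranged from 1.81 to 1.98. Of the 33 bins, 6 were kept under all 9 settings with the same bins, and 14 under all but 1. Of 28 recounts of treatment-only peaks in the named bins, 21 stayed within 1.5 times. With lists of equal length Gm21119 went from 10 to 19, Gm40469 from 10 to 16 and the Ugt1a bin from 11 to 17. With a −log10 q-value of at least 5 the Ugt1a bin went to 7, Gm15319 from 15 to 9, Tcp10c from 10 to 6 and Ripor2 from 6 to 2. With 1 library per group none could be left out. No paired analysis was possible because each group has 1 library.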
